A study of Mus musculus with 20 samples.

Results

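The genes described here encode 10 subunits of PRC1.6, a variant Polycomb repressive complex: Pcgf6, L3mbtl2, Mga, Max, E2f6, Tfdp1, Cbx3, Rybp, Ring1 and Rnf2. They were taken by symbol from the tables of raw counts and all 10 were present in each table, among 17426 genes shared by the 3 tables (25199 genes in any of them). The 12 embryos sequenced were whole C57BL/6 embryos taken singly at E8.5, of which 6 were Zmym2+/+ (3 male, 3 female) and 6 were Zmym2-/- (3 male, 3 female). The other 8 libraries came from V6.5 mouse embryonic stem cells (mESCs), a C57BL/6 x 129/SvJae hybrid line, as non-target (NT) control and Zmym2-/- lines, grown in serum with LIF (day 0) or differentiated to embryoid bodies (EBs, day 3), with 2 libraries per genotype and stage. Both the mice and the lines carry frameshifts made by CRISPR-Cas9 near the start of the Zmym2 coding sequence, so the mRNA of Zmym2-/- samples can still be counted. The edited cells were derived as clonal lines, and the labels do not say whether the libraries of a group came from separate cultures, so p-values in the lines measure the spread between these libraries only.

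PRC1.6 joins the Polycomb ubiquitin ligase to sequence-specific DNA-binding proteins. MGA with MAX binds E-boxes and E2F6 with its DP partner binds E2F sites. PCGF6 and L3MBTL2 are further subunits of the complex. CBX3 (HP1γ) binds methylated H3K9, RYBP is another subunit, and the RING proteins RING1 and RNF2 (RING1B) place ubiquitin on histone H2A. The complex is known for keeping germline and meiotic genes silent in embryonic stem cells and in the early embryo. ZMYM2 is a zinc finger protein of transcriptional corepressor complexes, and the comparisons here ask whether the mRNA of the complex itself differed in its absence.

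Libraries held between 32016880 and 64057608 counts, and the lowest count of any member in any library was 606 (Ring1), so low depth did not limit these genes. Zmym2 was lower in the Zmym2-/- lines by 1.296 on the log2 scale in mESCs and by 1.553 in EBs. In embryos its log2 difference was -0.91 (adjusted p = 0.226, edgeR quasi-likelihood test), and the genotypes overlapped, with 50.3 to 125 CPM in Zmym2+/+ and 25.4 to 67.1 CPM in Zmym2-/- embryos. The overlap was among males (50.3 to 91.8 against 54.7 to 67.1 CPM), while females were apart (84.0 to 125 against 25.4 to 40.8 CPM). The sex by genotype interaction of Zmym2 was 1.39 on the log2 scale and was not called (adjusted p = 0.0689, edgeR). Levels are given as CPM, the counts of a gene scaled to library size and by TMM. The sums over cell type markers that follow are CPM scaled to library size alone. The 5 mESC markers Pou5f1, Nanog, Zfp42, Esrrb and Klf4 summed to 3310 to 3476 CPM in NT mESCs, 1583 to 1658 CPM in NT EBs and 8.96 to 85.9 CPM in Zmym2+/+ embryos. The 5 markers of day 3 EBs (Fgf5, Otx2, T, Mixl1 and Eomes) summed to 16.3 to 17.4 CPM in NT mESCs and 348 to 364 CPM in NT EBs. The embryonic globins Hba-x and Hbb-y were among the 8 markers of E8.5 embryos, and neither was listed in the tables of the lines. The whole list, which holds Sox2, a gene that mESCs express as well, summed to 235 to 2807 CPM in Zmym2+/+ embryos and, over the 6 genes listed, to 711 to 745 CPM in NT mESCs, so its sum did not separate them. Between the genotypes of embryos, the mESC markers reached 419 CPM in the highest Zmym2-/- embryo (medians 67.8 in Zmym2+/+ and 67.7 CPM in Zmym2-/-) and the EB markers 314 CPM, against a highest Zmym2+/+ embryo of 100.3 CPM. The 5 motile cilia markers summed to 4.54 to 8.98 CPM in Zmym2+/+ and 6.09 to 116 CPM in Zmym2-/- embryos, and the 5 trophoblast and decidua markers to 5.62 to 464 CPM (median 191) and 8.20 to 388 CPM (median 30.3). Those of visceral endoderm and yolk sac summed to 915 to 2266 CPM and 901 to 3711 CPM. The part of these cell types in the genotype differences of embryos, germline genes included, was not tested. All 3 male Zmym2-/- embryos carry the name of 1 litter, so that sex and litter cannot be told apart among them.

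Levels of different genes were compared as CPM per kb of exon. Tfdp1, which encodes the DP1 partner of E2F proteins, was the highest of the 10 genes in every group, with 51.4 ± 2.96 CPM per kb in Zmym2+/+ embryos (SD, n = 6), 98.2 ± 1.72 in NT mESCs (SD, n = 2) and 103 ± 2.88 in NT EBs (SD, n = 2), and its libraries lay above those of every other member. The rest of the order differed between embryos and lines. In NT mESCs and NT EBs, L3mbtl2 came second (35.6 ± 1.37 and 29.6 ± 0.256 CPM per kb), ahead of Max, with no overlap between neighbours at the top of the order. In Zmym2+/+ embryos Rnf2 and Cbx3 came next (38.7 ± 5.36 and 34.2 ± 5.14 CPM per kb) and their libraries overlapped each other, Max followed at 22.8 ± 2.05, and L3mbtl2 was sixth at 10.3 ± 2.09, overlapping with E2f6 above it and Pcgf6 below it. The lowest member was Mga in Zmym2+/+ embryos (4.52 ± 1.596), E2f6 in NT mESCs (5.64 ± 0.115) and Mga in NT EBs (6.05 ± 0.268). Ring1 was near the bottom throughout, at 6.05 ± 0.722, 7.16 ± 0.661 and 6.65 ± 0.0210 CPM per kb, and in embryos its libraries overlapped with those of Mga.

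Paired subunits were unequal in level. The catalytic subunit Rnf2 exceeded its paralog Ring1 in every library, by a ratio of CPM per kb of 6.46 ± 1.14 in Zmym2+/+ embryos (SD, n = 6), 2.69 ± 0.415 in NT mESCs (SD, n = 2) and 2.31 ± 0.0472 in NT EBs (SD, n = 2). E2f6 stood at 0.273 ± 0.0399 of Tfdp1 in Zmym2+/+ embryos, against 0.0574 ± 0.000200 in NT mESCs and 0.0783 ± 0.00460 in NT EBs. Max, which also pairs with MYC and MXD proteins, exceeded Mga 5.59 ± 2.13 times in Zmym2+/+ embryos, 2.74 ± 0.0826 times in NT mESCs and 3.97 ± 0.366 times in NT EBs. In Zmym2-/- embryos Rnf2 over Ring1 was 6.16 ± 1.19, E2f6 over Tfdp1 was 0.258 ± 0.0261 and Max over Mga was 3.59 ± 0.836, each overlapping with the controls. None of these ratios was tested.

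None of the 10 genes was called between the genotypes in embryos at an adjusted p under 0.05, where 0.524% of the 22729 genes tested were called (116 higher, 0.51%, and 3 lower, 0.0132%, edgeR quasi-likelihood test), and 0 of the 10 had non-overlapping genotypes, against 1.18% of genes. In this fit, which has no covariate, none reached an unadjusted p under 0.05 by edgeR either, beside 2738 of the 22729 genes. DESeq2 also called 0 members, beside 372 genes. The median log2 difference was -0.05 over the members and 0.02 over all genes. Every 95% interval of the log2 differences lay within -0.51 and 0.91. These embryos are bulk samples, in which fewer cells of a type and less RNA per cell cannot be told apart.

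Among the DNA-binding subunits, Mga had the largest difference. It ranged from 42.0 CPM through a median of 63.4 to 109 CPM in Zmym2+/+ embryos, and from 64.3 through 90.8 to 133 CPM in Zmym2-/- embryos. The highest Zmym2+/+ embryo thus lay above all but 1 of the Zmym2-/- embryos. Its log2 difference was 0.45 (95% interval -0.02 to 0.91, adjusted p = 0.429, edgeR). Its partner Max ranged from 71.8 to 92.0 CPM (median 81.0) and from 69.3 to 85.0 CPM (median 75.2), a log2 difference of -0.11 (interval -0.31 to 0.09). E2f6 spanned 64.9 to 92.9 CPM (median 76.6) in Zmym2+/+ and 65.9 to 85.0 CPM (median 74.0) in Zmym2-/- embryos. The Zmym2-/- range of E2f6 lay wholly inside that of the controls. Tfdp1 spanned 176 to 203 CPM (median 187) and 163 to 200 CPM (median 198), with an interval of -0.17 to 0.21 on the log2 scale.

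L3mbtl2, Pcgf6, Cbx3 and Rybp overlapped between the genotypes as well. L3mbtl2 had 48.1 to 79.5 CPM (median 57.5) in Zmym2+/+ and 57.6 to 95.6 CPM (median 68.8) in Zmym2-/- embryos (log2 difference 0.23, interval -0.09 to 0.55). Pcgf6 had 43.3 to 53.5 CPM (median 51.1) and 43.5 to 61.8 CPM (median 47.3), and 5 of the 6 Zmym2-/- embryos were within 43.5 to 48.3 CPM. Cbx3 had 157 to 252 CPM (median 203) and 142 to 199 CPM (median 177), a log2 difference of -0.24 (interval -0.51 to 0.03, adjusted p = 0.463). For Cbx3, 3 controls lay above every Zmym2-/- embryo and 1 control lay below all but 1 of them. Rybp had 33.2 to 70.5 CPM (median 41.9) and 40.4 to 57.6 CPM (median 55.0).

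The catalytic pair showed no call. Rnf2 had 123 to 184 CPM (median 164) in Zmym2+/+ and 121 to 164 CPM (median 139) in Zmym2-/- embryos (log2 difference -0.17, interval -0.43 to 0.10). Ring1 had 15.8 to 22.4 CPM (median 20.7) and 15.9 to 21.7 CPM (median 17.9), and its 2 ranges almost coincided. The sex by genotype interaction was called for 0 members and 0 genes (0.0%) by edgeR, with 5067 genes and 1 member (Mga) at an unadjusted p under 0.05. DESeq2 called 2584 genes and 0 members for this interaction. For Mga, the log2 difference between genotypes was 0.94 in males alone (adjusted p = 0.0678) and -0.01 in females alone (adjusted p = 0.995), and the interaction was 0.89 with an adjusted p of 0.191.

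**Figure D1:**
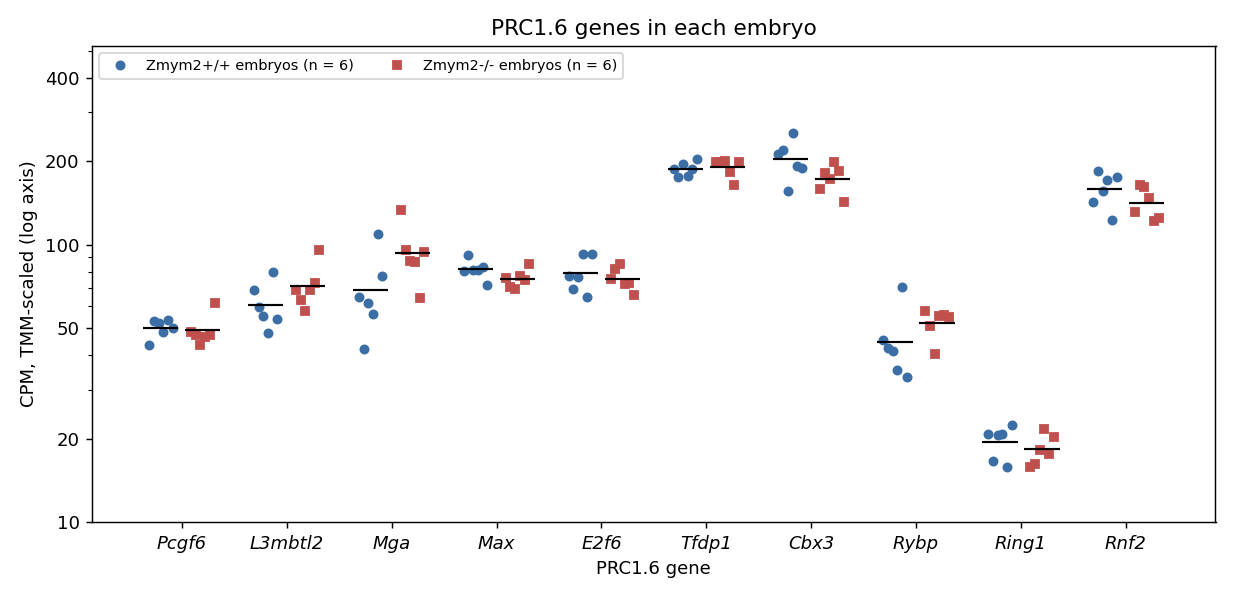
Levels of the 10 PRC1.6 genes in each E8.5 embryo, as TMM-scaled CPM on a log axis, with circles for the 6 Zmym2+/+ and squares for the 6 Zmym2-/- embryos and black lines for group means. The genotypes overlap for every gene, and Mga and Rybp spread most among the Zmym2+/+ embryos (42.0 to 109 and 33.2 to 70.5 CPM).

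Mga moved with the level of long against short genes in the embryo libraries. The exons of Mga cover 15.34 kb, the longest of the 10 genes. A length index was taken as the median log2 deviation of the longest 20% of genes (at least 7913 bases of exon, 2193 genes) minus that of the shortest 20% (at most 2594 bases), over genes with a mean of at least 5 CPM. Mga belongs to these longest genes, so a relation of its level to the index is partly built in. How closely other long genes followed the index was not tested, so the relation cannot be called particular to Mga. It ranged from -0.75 to 0.54 (median -0.25) in Zmym2+/+ embryos and from -0.15 to 0.88 (median 0.19) in Zmym2-/- embryos, so the groups overlapped with a higher median in Zmym2-/- embryos. Over the 12 embryos, the Mga level followed the index with Pearson's r = 0.98 and Spearman's rho = 0.99 (two-sided permutation p = 2e-05 for each, the smallest these permutations can give, 0.0002 after Benjamini-Hochberg adjustment over the 10 members). Pearson's r was 0.98 within genotypes, 0.97 without the 2 embryos farthest from the median index, and 0.98 and 0.99 within the embryos whose names begin with H and with J. No other member passed the adjustment, with Rybp at r = 0.64, Rnf2 at -0.61 and Cbx3 at -0.59 (permutation p of 0.112 for each after adjustment). With the index as a term in the model, chosen after seeing the data, the log2 difference of Mga between genotypes was 0.04 (adjusted p = 0.982) and 0 members were called. Over all 27 settings, this one included, the Mga difference ran from -0.01 (females alone) to 0.94 (males alone) without a call. It was 0.58 with litter as a block over 7 embryos (adjusted p = 0.277, edgeR) and 0.63 without Zmym2+/+ replicate 5 (adjusted p = 0.0893). With series as a term it was 0.35, and within the embryos whose names begin with H it was 0.12. What sets the index, and its part in the difference of Mga, was not tested, and genotype, litter and series are unevenly mixed over these embryos. Counts of ribosomal protein genes, which are short, made up 6.98% to 13.0% of the Zmym2+/+ and 6.65% to 9.80% of the Zmym2-/- libraries.

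**Figure D2:**
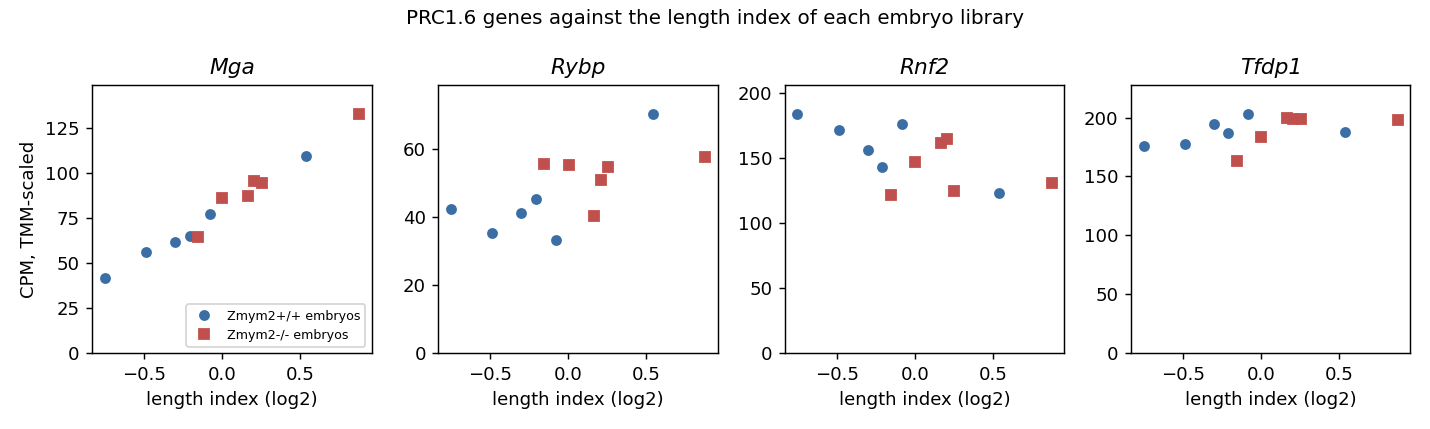
TMM-scaled CPM of Mga, Rybp, Rnf2 and Tfdp1 on linear axes that start at 0, against the length index of each embryo library in log2 units, with circles for Zmym2+/+ and squares for Zmym2-/- embryos. Both genotypes lie along 1 line for Mga (r = 0.98), while the points scatter for Rybp (r = 0.64), Rnf2 (r = -0.61) and Tfdp1 (r = 0.51).

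In mESCs 1 of the 10 genes was called, at an overall rate of 19.2% of 20159 genes (10.3% higher and 8.94% lower in Zmym2-/- lines). It was L3mbtl2, which had 216 and 205 CPM in the NT libraries and 255 and 259 CPM in the Zmym2-/- libraries. The genotypes did not overlap, and the log2 fold change was 0.29 (standard error 0.08, 1.22-fold, adjusted p = 0.0174, edgeR quasi-likelihood test). The call was lost without NT replicate 2 (adjusted p = 0.131), with the log2 fold change then at 0.26. The exons of L3mbtl2 overlap those of Chadl on the other strand over 17.21% of their length, and Chadl counts were 0.545% to 2.14% of L3mbtl2 counts in mESCs. Non-overlapping genotypes were seen for 8 of the 10 genes, against 60.6% of the 18926 genes listed for both mESCs and EBs, with 2 libraries per group.

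The other mESC differences did not pass. Pcgf6 had 72.2 and 74.8 CPM in NT and 84.7 and 88.8 CPM in Zmym2-/- mESCs, with the Zmym2-/- libraries above (log2 difference 0.24, standard error 0.09, adjusted p = 0.0703), and it was called (adjusted p = 0.0262) where the 4 groups of the lines were fitted together. Rnf2 had 74.9 and 82.0 CPM against 71.9 and 62.8 CPM, the Zmym2-/- libraries being lower (log2 difference -0.22, adjusted p = 0.152). Mga had 132 and 127 CPM against 113 and 118 CPM, also without overlap (log2 difference -0.16, adjusted p = 0.192). Ring1 (24.5 and 21.6 against 19.6 and 19.1 CPM) and Rybp (63.2 and 59.0 against 54.7 and 56.1 CPM) had the same order of groups, with adjusted p of 0.193 and 0.348. Tfdp1 and E2f6 were also lower in both Zmym2-/- libraries, by 0.10 and 0.03 on the log2 scale. Max was at 83.1 and 83.0 CPM in NT and 83.3 and 82.2 CPM in Zmym2-/- mESCs, and the interval of its log2 difference was -0.19 to 0.18. Cbx3, at 105 and 86.2 against 104 and 97.7 CPM, overlapped.

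In EBs 0 of the 10 genes were called, where 7.39% of 20142 genes were (4.62% higher, 2.77% lower). At an unadjusted p under 0.05 by edgeR there were 4151 genes and 1 member. This was E2f6, with 45.9 and 44.0 CPM in NT and 50.3 and 56.5 CPM in Zmym2-/- EBs. Its genotypes did not overlap, and the log2 difference was 0.25 (standard error 0.08, 1.19-fold, adjusted p = 0.0812, edgeR). Without Zmym2-/- replicate 1 it was called (0.33, adjusted p = 0.0270), and with the replicate number as a block it was called as well (0.25, adjusted p = 0.0484). Without Zmym2-/- replicate 2 the log2 difference was 0.16 (adjusted p = 0.333), and without NT replicate 2 it was 0.22 (adjusted p = 0.255). Groups did not overlap for 5 of the 10 genes, against 51.5% of the 18926 genes listed for both mESCs and EBs. Besides E2f6 these were L3mbtl2 (173 and 175 against 185 and 182 CPM), Max (88.0 and 82.3 against 76.7 and 80.8 CPM), Rnf2 (61.98 and 63.6 against 58.6 and 55.7 CPM) and Rybp. L3mbtl2 had a log2 difference of 0.08 in EBs (interval -0.03 to 0.19). Mga, at 88.8 and 94.6 CPM in NT and 89.9 and 93.5 CPM in Zmym2-/- EBs, overlapped, and its interval was -0.13 to 0.14. Over the members the median log2 difference was -0.07 in mESCs and -0.01 in EBs, beside 0.01 for all genes in both.

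**Figure D3:**
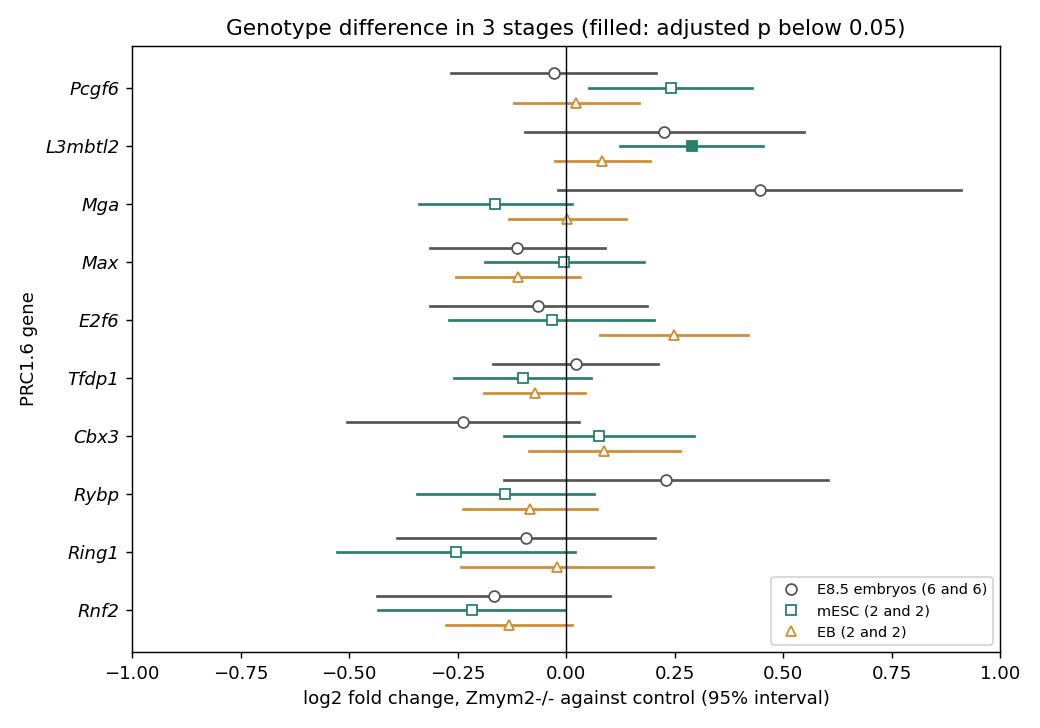
Log2 fold change of each PRC1.6 gene in Zmym2-/- against control samples with its 95% interval, in E8.5 embryos (circles), mESCs (squares) and EBs (triangles), with filled symbols for an adjusted p under 0.05. The only filled symbol is that of L3mbtl2 in mESCs (0.29), and the widest interval is that of Mga in embryos (-0.02 to 0.91).

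From mESC to EB, 4 of the 10 genes were called in the NT lines, where 46.6% of 18926 genes were (23.0% higher, 23.6% lower), and groups did not overlap for 6 of 10, against 73.3%. E2f6 rose from 31.2 and 32.2 CPM in NT mESCs to 45.9 and 44.0 CPM in NT EBs (log2 fold change 0.50, standard error 0.09, 1.42-fold, adjusted p = 0.000378, edgeR). Mga fell from 132 and 127 CPM to 88.8 and 94.6 CPM (log2 fold change -0.50, adjusted p = 5.48e-05). L3mbtl2 and Rnf2 fell too, with log2 fold changes of -0.28 (adjusted p = 0.00174) and -0.32 (adjusted p = 0.00685). Rnf2 lost its call without NT mESC replicate 2 (adjusted p = 0.0633). Pcgf6, Max, Tfdp1, Rybp and Ring1 did not pass, and the intervals of the first 4 lay within -0.13 and 0.22 on the log2 scale.

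In the Zmym2-/- lines 5 of the 10 genes were called, against 45.2% of genes (23.1% higher, 22.1% lower), and groups did not overlap for 8 of 10, against 70.7%. E2f6 rose from 30.9 and 31.1 to 50.3 and 56.5 CPM (log2 fold change 0.78, standard error 0.09, 1.72-fold, adjusted p = 1.18e-05, edgeR). L3mbtl2 fell from 255 and 259 to 185 and 182 CPM (log2 fold change -0.48), and Mga from 113 and 118 to 89.9 and 93.5 CPM (log2 fold change -0.33). The changes of Rnf2 (-0.24, adjusted p = 0.0356) and Pcgf6 (-0.19, adjusted p = 0.0439) were smaller, and both were lost without Zmym2-/- EB replicate 1 (adjusted p = 0.0742 and 0.246), without Zmym2-/- EB replicate 2 (0.177 and 0.0702) and in a fit of the Zmym2-/- lines alone (0.0502 and 0.0629). Pcgf6 was also not called without Zmym2-/- mESC replicate 2 (adjusted p = 0.163), and Rnf2 not without Zmym2-/- mESC replicate 1 (-0.14, adjusted p = 0.257). With the replicate number as a block, Cbx3 was called as well, in NT (0.17, adjusted p = 0.0382 against 0.198 without the block) and in Zmym2-/- lines (0.18, adjusted p = 0.0292 against 0.174), which makes 5 and 6 members. In NT lines Cbx3 was also called without NT mESC replicate 1 (0.32, adjusted p = 0.0356), whereas its log2 difference was 0.04 without NT mESC replicate 2 (adjusted p = 0.830) and 0.0047 without NT EB replicate 1 (adjusted p = 0.986). It had 105 and 86.2 CPM in NT mESCs and 118 and 97.6 CPM in NT EBs.

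The change from mESC to EB was not shown to differ between genotypes for any member, with 0 of 10 called for the stage by genotype interaction against 5.25% of genes (3.07% positive, 2.18% negative). At an unadjusted p under 0.05 by edgeR there were 3 members, beside 3733 of 18926 genes. The largest interaction was that of E2f6 (log2 0.28, standard error 0.12, adjusted p = 0.224, edgeR). Those of Pcgf6 (-0.22, adjusted p = 0.249) and L3mbtl2 (-0.21, adjusted p = 0.175) were negative, and both genes were higher in Zmym2-/- than in NT mESCs and closer between genotypes in EBs.

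**Figure D4:**
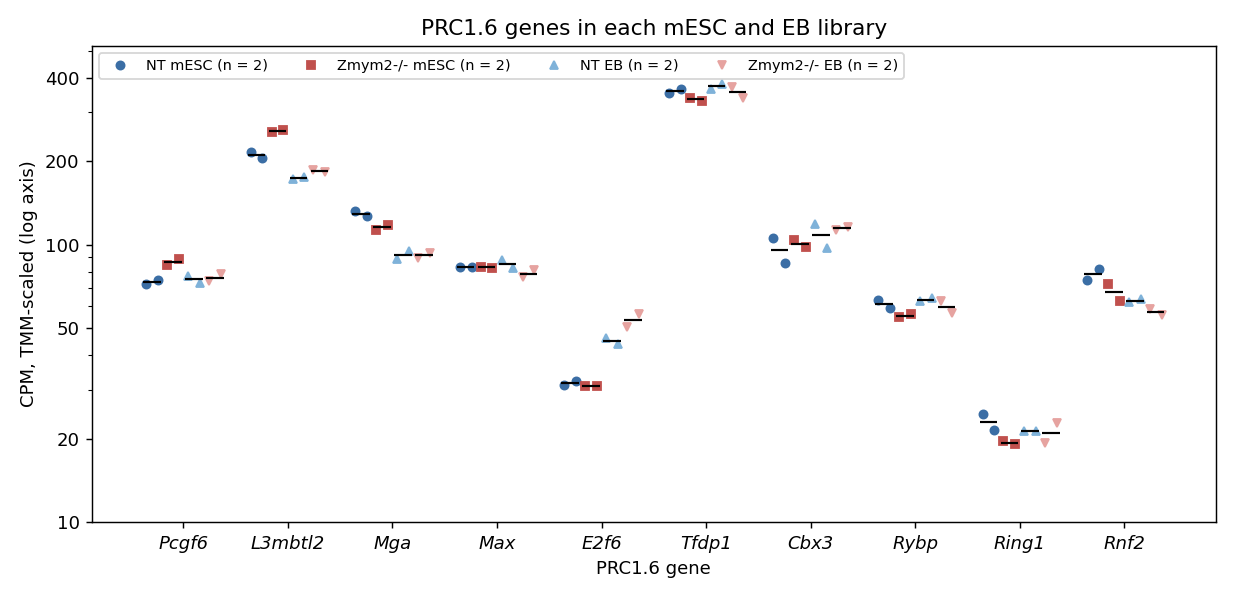
Levels of the 10 PRC1.6 genes in each mESC and EB library, as TMM-scaled CPM on a log axis, with circles for NT mESC, squares for Zmym2-/- mESC, upright triangles for NT EB and inverted triangles for Zmym2-/- EB (2 libraries each, black lines for group means). E2f6 is higher in EBs than in mESCs in both genotypes, L3mbtl2 and Mga are lower, and L3mbtl2 is highest in Zmym2-/- mESCs (255 and 259 CPM).

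Larger differences separated embryos from the lines. Here all 20 libraries were scaled together, and developmental stage cannot be told apart from strain, source of the cells and count table. Between Zmym2+/+ embryos and NT mESCs 7 of the 10 genes were called, against 57.7% of 17426 genes (28.9% higher and 28.8% lower in embryos), and 7 did not overlap, against 60.4%. The median log2 difference was -0.34 over the members and 0.00 over all genes.

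L3mbtl2 differed most. It ranged from 47.4 to 82.6 CPM in Zmym2+/+ embryos (median 58.4), against 218 and 206 CPM in NT mESCs and 175 and 177 CPM in NT EBs. Every embryo lay below every library of the lines, and the level in embryos was 3.45-fold lower than in mESCs (log2 -1.79, standard error 0.17, adjusted p = 1.04e-07, edgeR) and 2.86-fold lower than in EBs. Tfdp1 ranged from 175 to 202 CPM in embryos (median 190) against 356 and 365 CPM in mESCs, 1.91-fold lower (log2 -0.93, standard error 0.10). Pcgf6 ranged from 42.9 to 55.6 CPM (median 51.4) against 72.7 and 75.2 CPM, a log2 difference of -0.55 (adjusted p = 0.00102). Mga was also below NT mESCs (log2 -0.91, adjusted p = 0.00581), with 42.7 to 114 CPM in embryos (median 63.4) and 133 and 127 CPM in mESCs, and in the same embryos it followed the length index.

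The members that were higher in embryos were the DNA-binding subunit E2f6, the chromodomain subunit Cbx3 and the catalytic subunit Rnf2. E2f6 ranged from 67.4 to 92.1 CPM in Zmym2+/+ embryos (median 76.8) against 31.5 and 32.4 CPM in NT mESCs, 2.48-fold higher (log2 1.31, standard error 0.15, adjusted p = 8.14e-07, edgeR). Cbx3 ranged from 159 to 248 CPM (median 205) against 106 and 86.8 CPM, 2.13-fold higher (log2 1.09, standard error 0.17). Rnf2 ranged from 128 to 187 CPM (median 164) against 75.5 and 82.5 CPM, 2.02-fold higher (log2 1.02, standard error 0.16). All 3 were separated from both line groups. The exons of Rnf2 overlap those of Trmt1l on the other strand over 3.83% of their length, and Trmt1l counts were 17.1% to 40.4% of Rnf2 counts in embryos and 53.9% to 69.8% in mESCs. Processed copies of Cbx3 held 0.295% to 2.12% of the counts of Cbx3 over all libraries.

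Max and Ring1 showed no such difference. Max ranged from 71.5 to 93.5 CPM in Zmym2+/+ embryos (median 81.0) against 83.7 and 83.5 CPM in NT mESCs, with an interval of -0.25 to 0.20 on the log2 scale, and Ring1 from 16.5 to 22.3 CPM (median 20.5) against 24.7 and 21.7 CPM. Against NT EBs, 6 of the 10 genes were called (53.9% of genes, 27.0% higher and 26.8% lower) and 6 did not overlap (58.2% of genes). Rnf2 (log2 1.33), Cbx3 (0.91) and E2f6 (0.80) were higher, and L3mbtl2 (-1.52), Tfdp1 (-0.998) and Pcgf6 (-0.59) were lower. Rybp (-0.50, adjusted p = 0.0542) and Mga (-0.42, adjusted p = 0.187) were called without Zmym2+/+ replicate 5, which had the highest length index among controls (Rybp -0.70, adjusted p = 0.000445, and Mga -0.62, adjusted p = 0.0184), and Rybp also passed with DESeq2 (adjusted p = 0.0365) and RLE factors (adjusted p = 0.0369). Without that embryo Rybp was also called against NT mESCs (-0.64, adjusted p = 0.000849, against 0.0839 with it). The 2 comparisons share the embryos.

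**Figure D5:**
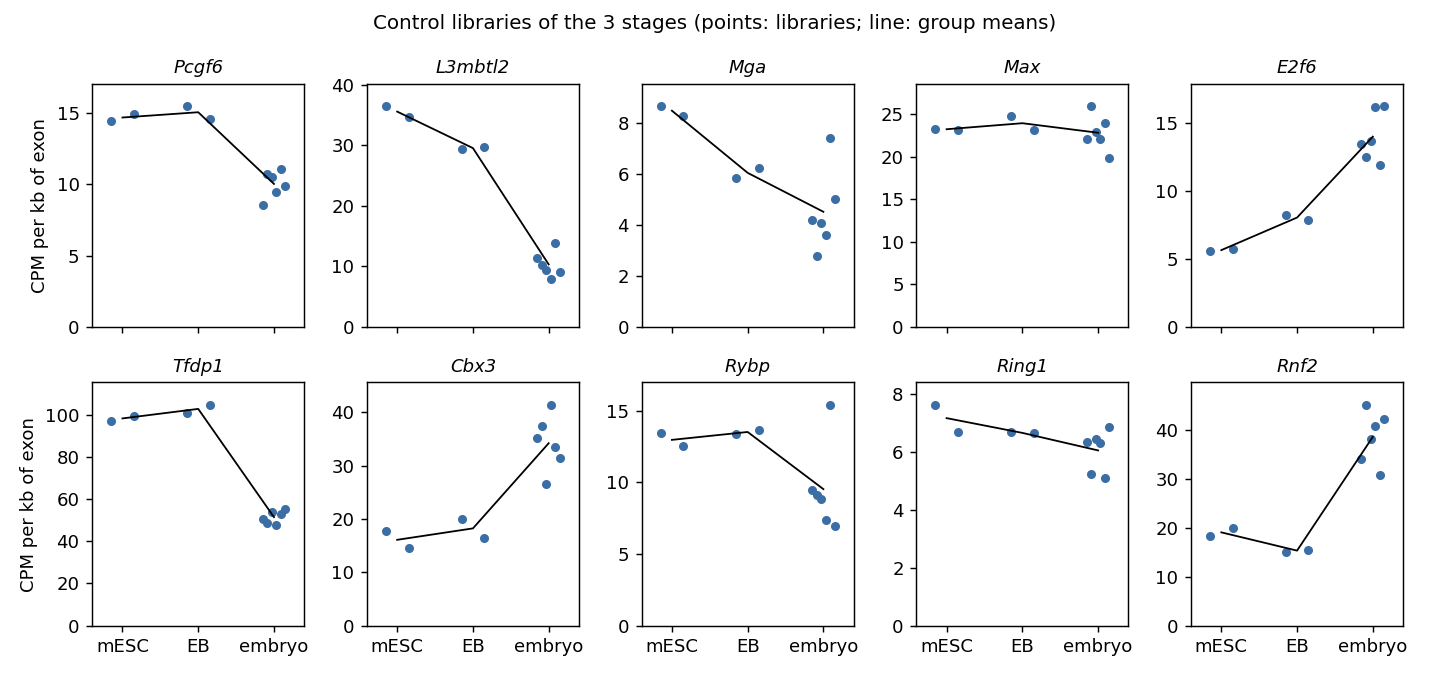
CPM per kb of exon of the 10 PRC1.6 genes in control libraries, with 1 panel per gene, linear axes that start at 0 and points for libraries of NT mESCs (n = 2), NT EBs (n = 2) and Zmym2+/+ embryos (n = 6), joined by a line through the group means. L3mbtl2, Tfdp1 and Pcgf6 are lowest in embryos, whereas E2f6, Cbx3 and Rnf2 are highest there.

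The scale mattered for 4 members. The RPKM of the embryo table imply shorter genes than those of the line table for Pcgf6 (2.10 against 5.03 kb), Max (2.01 against 3.60 kb), E2f6 (2.42 against 5.66 kb) and Tfdp1 (1.70 against 3.67 kb). As a result, the RPKM of Tfdp1 were 107 ± 10.8 in Zmym2+/+ embryos (SD, n = 6) and 96.0 ± 1.35 in NT mESCs (SD, n = 2), an order opposite to that of its CPM, and the RPKM of E2f6 were 31.5 ± 5.04 and 5.51 ± 0.0933, a wider gap than in CPM. Max over Mga was 10.03 ± 3.82 in RPKM in Zmym2+/+ embryos and 6.45 ± 1.501 in Zmym2-/- embryos (SD, n = 6 each), against 5.59 and 3.59 in CPM per kb. The order of the genes in Zmym2+/+ embryos also depended on this scale, since in RPKM Max (39.2 ± 2.44) came second, overlapping with Rnf2 (37.1 ± 4.78) and Cbx3 (32.7 ± 4.39), and Pcgf6 (23.1 ± 2.49) lay above L3mbtl2 (9.91 ± 2.12). The line table matched the exon lengths of GENCODE vM21 within 1% for 98.5% of genes and the embryo table for 71.5%. Over the 1175 genes with an embryo length more than 1.5 times shorter, the median log2 difference in counts between Zmym2+/+ embryos and NT mESCs was -0.04, and over the 8382 genes with like lengths it was 0.09. Whether the counts of these 4 genes in embryos were taken over shorter gene models was not tested.

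The pathway around the 10 genes was followed in lists of other subunits and paralogs. Of 8 further PRC1.6 subunits and partners (Wdr5, Hdac1, Hdac2, Yaf2, Cbx1, Tfdp2, Ehmt1 and Ehmt2), 0 were called in Zmym2-/- embryos, beside 0.524% of all genes. In mESCs, where 19.2% of all genes were called, 2 were higher, the H3K9 methyltransferase gene Ehmt1 (log2 0.38) and the HP1 gene Cbx1 (0.34), and Wdr5, a WD40 scaffold shared with other chromatin complexes, was lower (-0.47, adjusted p = 0.000975). In EBs 1 was higher, Tfdp2 (0.33), which encodes another DP partner of E2F proteins, beside 7.39% of all genes called, and 0 were called without NT EB replicate 1. From mESC to EB, Yaf2, the paralog of Rybp, rose 2.57-fold in NT lines and 2.84-fold in Zmym2-/- lines, and Wdr5 fell in both (-0.63 and -0.26). Yaf2 was also 6.16-fold higher in Zmym2+/+ embryos than in NT mESCs. For Wdr5 the stage by genotype interaction was called (0.37, adjusted p = 0.0274, edgeR), beside 5.25% of all genes, but 0 genes of the list were called once NT mESC replicate 2 or any of the 4 EB libraries was left out.

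Of 21 genes of the other PRC1 complexes, 0 were called in Zmym2-/- embryos, beside 0.524% of all genes. In mESCs 4 were higher, beside 10.3% of all genes. Bcor (log2 0.60), a subunit of PRC1.1, and Cbx7 (0.39), the main chromobox of canonical PRC1 in embryonic stem cells, had the smallest adjusted p among them. Another 2 were lower, Cbx6 (-0.42) and Pcgf5 (-0.59), beside 8.94% of all genes. In EBs 3 were higher, led by the Polyhomeotic genes Phc1 (0.32) and Phc2 (0.34), and 0 were lower, beside 7.39% of all genes called. This count was 1 without NT EB replicate 2 and 0 with the 4 groups of the lines in 1 fit. From mESC to EB 8 rose and 4 fell in NT lines, beside 23.0% and 23.6% of all genes, among them Bcor (1.19), Cbx2 (0.88), Usp7 (-0.27) and Fbrsl1 (-0.34). The rise of Bcor was smaller in Zmym2-/- lines (0.42, interaction -0.77, adjusted p = 0.000911, edgeR). Between Zmym2+/+ embryos and NT mESCs, 6 were higher and 8 lower, beside 28.9% and 28.8% of all genes, including Bmi1, an alternative PCGF protein, at 21.5-fold higher and Cbx6 at 5.16-fold lower.

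Of 10 genes of the MYC and MAX network, 0 were called in embryos, beside 0.524% of all genes. In both mESCs and EBs Myc was lower (log2 -0.74 and -0.60) and the MAX partner Mxd4 was higher (0.96 and 0.56) in Zmym2-/- lines. Together with Mycn in mESCs (0.57) and Mlxip in EBs (0.30) this made 2 higher and 1 lower at each stage. Over all genes, 10.3% were higher and 8.94% lower in mESCs, and 4.62% and 2.77% in EBs. Over the settings tried the list had 3 to 6 genes called in mESCs and 2 to 3 in EBs. Of 8 other E2F and DP genes, 0 were called in embryos, beside 0.524% of all genes. E2f1 (-0.47) and E2f8 (-0.31) were lower in Zmym2-/- mESCs, beside 8.94% of all genes lower. Tfdp2 was higher in Zmym2-/- EBs, beside 4.62% of all genes higher. Tfdp2 is also in the list of PRC1.6 partners, so this is the same call as the one given there. From mESC to EB in NT lines, E2f7 (0.72) and E2f3 (0.29) rose and E2f1 (-1.23) and E2f2 (-1.76) fell, within 3 higher and 3 lower, beside 23.0% and 23.6% of all genes.

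Germline genes known as targets of PRC1.6 were followed as a list of 16, of which 15 were in the embryo table. The list was chosen with results of these samples known, and is no independent evidence of direction. In Zmym2-/- embryos 7 were higher and 0 lower, beside 0.51% and 0.0132% of all genes. Mael, a piRNA pathway gene, had 0.0969 to 0.236 CPM (median 0.132) in Zmym2+/+ and 1.34 to 6.25 CPM (median 2.97) in Zmym2-/- embryos, 23.1-fold higher (log2 4.53, standard error 0.43, adjusted p = 0.000149, edgeR). Dmc1, the meiotic recombinase, had 0.678 to 1.92 CPM (median 1.41) and 6.57 to 9.99 CPM (median 8.69), 6.14-fold higher with no overlap. Tuba3a (20.7-fold, near-identical to Tuba3b and therefore uncertain), Sycp3, Ddx4, Tdrd1 and Smc1b made up the rest. Over the alternatives the count in embryos ranged from 0 to 10, with 0 within the embryos whose names begin with H and 0 over the 7 embryos with litter as a block, 1 in females alone, 6 without Zmym2-/- replicates 5 and 6, and 6 with the length index as a term. The median log2 difference was 1.95 over the 15 genes and 0.02 over all genes, while that of the 10 subunits was -0.05.

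In mESCs 5 of the 16 germline targets were higher and 1 was lower in Zmym2-/- lines, and in EBs 8 were higher and 0 lower, where 19.2% and 7.39% of all genes were called. The count in EBs was 5 without NT EB replicate 2 and at most 10 over the settings tried. Hormad1, a gene of the meiotic chromosome axis, had 4.21 and 4.51 CPM in NT and 21.2 and 27.1 CPM in Zmym2-/- mESCs, 5.54-fold higher (log2 2.47, standard error 0.17, adjusted p = 9.73e-07, edgeR). Ddx4, a germ cell RNA helicase gene, was lower in Zmym2-/- mESCs (log2 -0.75) and higher in Zmym2-/- EBs (0.38), and its interaction was called (1.13, adjusted p = 0.00172). Dazl, a germ cell RNA-binding protein gene, was 3.22-fold higher in Zmym2-/- EBs (log2 1.69), with an interaction of 1.13 (adjusted p = 0.0449). The count of interactions called in the list ranged from 1 to 3 over the settings. Through differentiation of the NT lines 9 of the 16 fell and 1 rose (Tdrd1, log2 1.45), and between NT mESCs and Zmym2+/+ embryos 12 of 15 were lower in embryos, beside 23.6% and 28.8% of all genes lower.

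The promoter windows of 3 of these targets and of Tfdp1 are shown because they carry the letters that the DNA-binding subunits are known to recognise. Each is the 250 bases before the gene start in RefSeq (GRCm38.p6), read 5′ to 3′ on the strand of the gene, with capitals for CACGTG (the E-box of MGA and MAX) and for TCCCGC or its reverse complement GCGGGA (an E2F6 site). No 2 matches share bases.
Tfdp1, chr8:13338501-13338750, plus strand: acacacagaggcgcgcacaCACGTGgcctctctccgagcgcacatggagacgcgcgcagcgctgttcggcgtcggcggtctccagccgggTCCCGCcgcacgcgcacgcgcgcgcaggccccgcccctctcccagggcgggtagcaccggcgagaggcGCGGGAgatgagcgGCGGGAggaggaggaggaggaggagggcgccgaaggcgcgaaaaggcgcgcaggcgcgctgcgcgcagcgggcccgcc
Mael, chr1:166238745-166238994, minus strand: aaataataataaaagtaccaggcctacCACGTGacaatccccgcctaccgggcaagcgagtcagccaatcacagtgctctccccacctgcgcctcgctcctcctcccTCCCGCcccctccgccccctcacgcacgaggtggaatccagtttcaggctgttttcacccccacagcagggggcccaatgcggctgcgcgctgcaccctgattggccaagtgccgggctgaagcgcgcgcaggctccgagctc
Dmc1, chr15:79605110-79605359, minus strand: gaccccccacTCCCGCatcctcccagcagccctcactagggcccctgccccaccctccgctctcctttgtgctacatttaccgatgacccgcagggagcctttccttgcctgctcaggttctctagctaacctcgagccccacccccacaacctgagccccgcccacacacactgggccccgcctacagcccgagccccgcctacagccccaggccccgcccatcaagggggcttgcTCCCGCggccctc
Hormad1, chr3:95559427-95559676, plus strand: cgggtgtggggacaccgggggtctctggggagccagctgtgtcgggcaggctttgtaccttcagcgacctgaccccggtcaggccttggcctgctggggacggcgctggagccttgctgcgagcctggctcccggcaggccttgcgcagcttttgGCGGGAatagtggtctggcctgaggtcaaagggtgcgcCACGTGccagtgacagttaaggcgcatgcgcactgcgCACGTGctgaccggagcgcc

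Of the 16 germline targets, 9 had the E-box and 8 an E2F6 site in this window, searched on both strands, and 4 had both. A gene with several windows was counted where any of them matched, and counted in this way 6.86% of all 27025 genes with a window had the E-box, 18.8% an E2F6 site and 1.69% both. Of the 9 subunit genes with a window (Rybp had none in the table), 1 had the E-box (Tfdp1) and 3 an E2F6 site (Tfdp1, E2f6 and Rnf2). Tfdp1 had another window in the table, with E2F6 sites and without the E-box. A match of letters is a description of the window and not a measured binding site.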

How the data were processed

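RNA-seq libraries of 12 embryos and 8 samples of the lines were analysed from values deposited by the authors. Per the labels and the study's methods, the authors made libraries with a stranded mRNA kit, trimmed (Trimmomatic 0.34), aligned to mm10 (STAR 2.7.8a), marked duplicates (Picard 2.9.0) and counted reads per gene with HTSeq, whose annotation and strand setting are not given in the sources used here. Raw counts deposited by the authors are whole numbers with no normalisation, with 22729 genes for embryos, 20159 for mESCs and 20142 for EBs. RPKM values deposited by the authors, which the study's methods credit to StringTie (1.3.5), served only to describe levels. In the line table they equal the counts over library size and GENCODE exon length within 1% for 98.5% of genes, so their origin remains uncertain. Another 20 normalised columns were not used.

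Genes were kept at a sum of 10 or more counts in a comparison and tested in R (4.3.3) with edgeR (4.0.16), using TMM, glmQLFit and glmQLFTest (two-sided), with calls below 0.05 after Benjamini-Hochberg adjustment over all genes tested. Genotypes were compared within embryos, mESCs and EBs. Stages and their interaction with genotype were fitted over the 8 libraries of the lines, and embryos against lines over all 20. Standard errors were derived from the fold change and F, and intervals are at the 95% level. CPM per kb used exon lengths of GENCODE vM21, added after seeing that the RPKM tables differed. Permutation tests used 100000 resamples. The fit was tested on simulated data.

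DESeq2 (1.42.0), RLE factors, other filters, replicates left out, replicate blocks, sex, series and litter were alternatives. Members, lists and tests were chosen with earlier results of these data known. All 10 members, Zmym2 and, from each list, the 2 called genes with the smallest adjusted p in each direction were to be named. Tuba3a, Sycp3, Ddx4, Tdrd1 and Smc1b in embryos, Ddx4 in EBs, and Wdr5 and Bcor from mESC to EB in the Zmym2-/- lines were named after their values were seen. Deviations of same-numbered mESC and EB libraries from their group means correlated at 0.200 (NT) and 0.488 (Zmym2-/-). With 2 libraries per group the deviations mirror each other, so numbers 1 and 2 give the same value. Whether the numbers pair these libraries therefore cannot be decided from these correlations. The reported fit has no block, and the blocked value is given where it changes a call. Between genotypes the correlations were -0.073 for mESCs and -0.110 for EBs, with the same limit. For same-numbered embryos they ran from -0.482 to 0.397, with both signs, and pairing was not established. No 2 libraries had identical counts.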

Additional observations from a re-analysis of the deposited data

Results flagged for a closer look

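With 6 embryos per genotype, 22 sets of levels were tested for a value far from the rest, of which chance alone flags about 1 in 20. For Pcgf6, Zmym2-/- embryo 6 stood above the others at 61.8 CPM, with a gap of 0.737 of the group's range, and the next highest embryo had 48.3 CPM. For Rybp, Zmym2+/+ embryo 5 stood above the others at 70.5 CPM, with a gap of 0.676 of the range, and the next had 45.3 CPM. Without that embryo the log2 difference of Rybp between genotypes was 0.41, and without Zmym2-/- embryo 6 that of L3mbtl2 was 0.12 in place of 0.23. The same embryo 5 had the highest length index of the controls.

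E2f6 was flagged because both Zmym2-/- libraries lay below both NT libraries in mESCs (log2 difference -0.0329) and above them in EBs (0.25). The interaction was tested at 0.28 with an adjusted p of 0.224 (edgeR) and did not pass.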

How the results depend on the processing

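In Zmym2-/- embryos, and for the stage by genotype and the sex by genotype interactions, 0 members were called in each of 26, 13 and 16 alternatives. In mESCs the main count of 1 became 2 with the 4 groups in 1 fit, and 0 to 1 with a replicate left out. In EBs the main count of 0 became 1 with the replicate block, 1 with the crossed replicate block (added after seeing the data because the genotypes' numbers correlated at -0.110, with 2243 genes called), and 0 to 1 with a replicate left out. From mESC to EB in Zmym2-/- lines, 5 became 3 in that genotype alone and 3 to 4 with a replicate left out. The block changed no other member's call except those of Cbx3 and E2f6 given above. Member counts ranged from 3 to 5 for NT lines, 7 to 8 for embryos against mESCs and 6 to 8 against EBs. Over all genes, calls ranged from 1 to 384 in embryos (main 119), 955 to 2243 in EBs (1489), 404 to 2325 for stage by genotype (993) and 0 to 2584 for sex by genotype (0). The cause of these differences was not tested, and some of the embryo sets held fewer embryos. No member reversed a called direction. Depth limits no member here, but 2 libraries per group in the lines and the spread of embryos do, and Mga in embryos moved with the length index.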
